A study of Mus musculus with 2 samples.

Results

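Somatostatin and other neuropeptide precursor genes of forebrain neurons were examined in a mouse glioblastoma stem cell line. The 10 genes, Sst, Npy, Vip, Cck, Tac1, Penk, Nts, Gal, Adcyap1 and Cartpt, are members of 23784 genes that could be named on the array. They were chosen by name, as a family around Sst, with the difference of Sst between these arrays known from earlier results, and every non-control probe whose RefSeq accession belongs to one of them was taken. All 10 had a probe, 13 probes in all, on 22 spots of each array.

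The control group was the line carrying a lentiviral non-target shRNA, and the other group was the same line carrying a lentiviral shRNA against Gli2, a zinc finger transcription factor at the end of the Hedgehog pathway. Both are stable transductants of tumour cells grown as neurospheres without serum, with EGF and bFGF added, and per the labels' protocols the line comes from de novo mouse glioblastomas induced with the SB transposon. Each group has 1 array, so there is no replicate and no test, and with 1 line and 1 shRNA per group a clone, a culture and the shRNA cannot be told apart. The error given after ± is the scanner software's own error of the spots, carried to the log2 scale.

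Neuropeptides are made as larger precursors, cut by prohormone convertases inside dense-core granules and released to act on G protein-coupled receptors. In the forebrain many of them mark classes of neurons. Somatostatin, neuropeptide Y and vasoactive intestinal peptide label kinds of inhibitory interneuron, and enkephalin and tachykinin precursors label projection neurons of the striatum. The somatostatin promoter is the textbook example of a promoter with a cyclic AMP response element, the site bound by CREB.

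The arrays shared 1 slide and 1 scan. Signals are background-subtracted spot intensities, and a scaled level is the log2 signal minus the 75th percentile of the same array, which was 329 for the control and 399 for the Gli2 shRNA array. A probe counted as measured when it carried the software's mark for well above background, for which the lowest signal was 12.8 in the control and 15.2 with the Gli2 shRNA. Differences are Gli2 shRNA minus control, and a gene was counted when it differed by 2-fold or more, 1 on the log2 scale. The targeted gene Gli2 (RefSeq NM_001081125) read 98.1 in the control against 57.9 with its shRNA, a difference of -1.04 ± 0.22 that leaves 48.7% of the control level, but was within 2-fold with normexp background correction (-0.64) and median scaling (-0.90). Of the 13 neural stem cell markers 11 were measured on both arrays, none of them past 2-fold, and each of the others on a single array. Of these others, Nr2e1 was measured in the control only (27.2 against 15.4) and was 2.14-fold lower, but differed by -0.41 with normexp. Normexp as used here added an offset of 50 to every signal, which pulls the differences of dim probes towards 0. For genes with signals near or below 50, a small normexp difference therefore does not show that the reported one failed a check.

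Sst was the member with a large difference, and it was higher in the Gli2 shRNA array. Its 1 probe (NM_009215) gave a processed signal of 173 with a software error of 17.5 in the control, and 1301 with an error of 130 in the Gli2 shRNA array. Both values lie far above the lowest signal that counted as measured, and neither spot was marked as an outlier or saturated. The scaled level went from -0.93 to 1.71 on the log2 scale, that is from below to above the 75th percentile of the array. The difference was 2.63 ± 0.21, or 6.20-fold, and the ratio of the unscaled signals was 7.51. The raw scan shows the same direction: the median pixel signal was 223 over a local background of 39.5 in the control, and 1440 over 30.0 in the Gli2 shRNA array.

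Among 14563 named genes measured on both arrays, Sst ranked 8 from the highest difference. The 3 genes whose difference was nearest to that of Sst were Atg9b (2.66 ± 0.31), Col23a1 (2.53 ± 0.27) and Ap3b2 (2.47 ± 0.21). Likeness was taken in this single difference, since 2 arrays give 1 difference per gene. Sst was chosen with its value known, so its rank is a description.

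**Figure D1:**
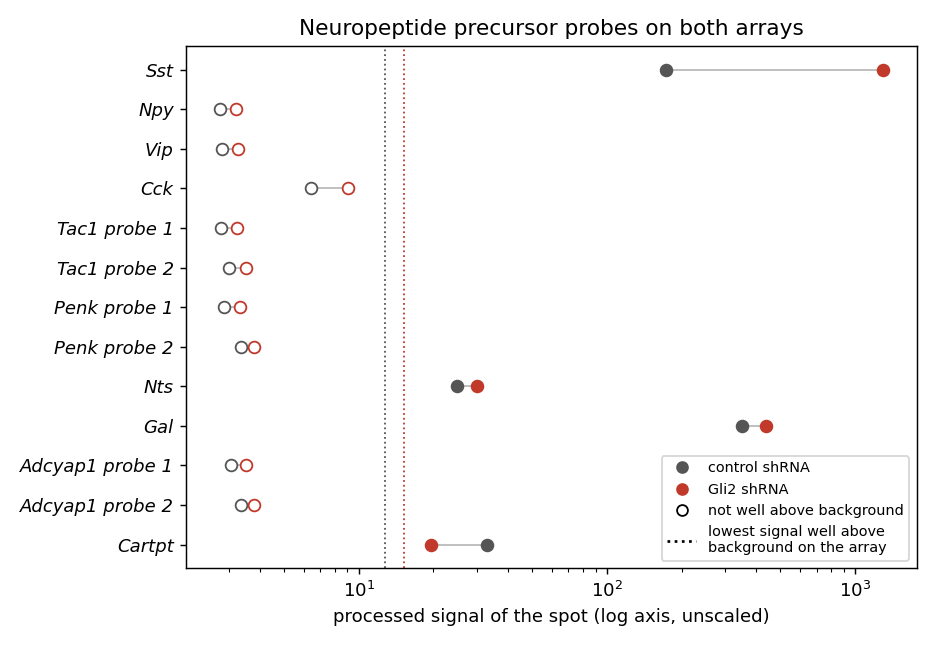
Processed signal of each probe of the 10 neuropeptide precursor genes on a log axis, in the control shRNA array (grey) and the Gli2 shRNA array (red), with open circles for probes not well above background and dotted lines at the lowest signal well above background on each array. Sst moves from 173 to 1301, Gal, Nts and Cartpt are measured on both arrays with smaller differences, and 9 probes of 6 genes lie left of the dotted lines. Brightness differs between probes, so positions of different genes are not comparable as levels.

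The other 3 measured members did not share the Sst difference. Gal encodes galanin, a peptide of hypothalamic and brainstem neurons. Its probe (NM_010253) gave 351 in the control against 438 with the Gli2 shRNA, which after scaling is a difference of 0.04 ± 0.20. Nts encodes neurotensin. Its probe (NM_024435) was dim, at 24.8 and 29.9, and the difference was -0.0070 ± 0.29. Both genes thus differed by less than the software error of their spots. The sign of the Nts difference changed with the scaling, to 0.13 with median scaling and 0.20 with cyclic loess, so that Nts has no settled direction.

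Cartpt, the precursor of the CART peptides of hypothalamic and striatal neurons, went the other way from Sst and just passed 2-fold. Its probe (NM_013732) gave 32.9 with a software error of 4.36 in the control and 19.5 with an error of 3.86 in the Gli2 shRNA array. The difference was -1.03 ± 0.34, or 2.04-fold lower, at 49.1% of the control level, and 242 genes had a lower one. The Gli2 shRNA value is close to the lowest measured signal of 15.2. Cartpt was within 2-fold with normexp (-0.39), with the median signal minus local background (-0.48), with cyclic loess (-0.81), with quantile normalization (-0.86) and with median scaling (-0.89). Both of its signals lie below the normexp offset of 50, so the normexp value is pulled towards 0 by the method.

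Of the 4 members measured on both arrays, 1 was thus 2-fold or more higher and 1 lower. Over all named genes measured on both arrays, 1.84% were 2-fold or more higher and 1.79% lower, 3.63% in all. Genes as dim as Cartpt were 2-fold or more lower more often. This held for 4.56% of 1229 genes within 0.5 of its mean scaled log2 level. It held for 1.48% of 1618 genes within 0.5 of the level of Sst. Of the latter, 1.48% were also 2-fold or more higher. The share higher was not counted at the level of Cartpt. The 268 higher and 260 lower genes became 384 and 176 with median scaling, 67 and 100 with normexp, and 434 and 194 with the median signal minus local background. Nothing is read from the members' count, since they were chosen with these differences known.

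**Figure D2:**
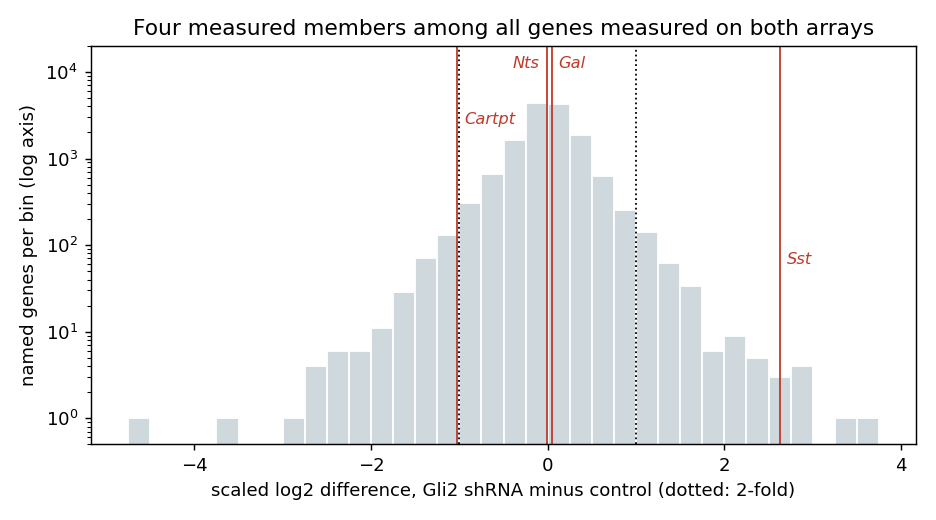
Number of named genes (log axis) in each bin of the scaled log2 difference, Gli2 shRNA minus control, for the 14563 genes measured on both arrays, with red lines at the 4 measured members and dotted lines at 2-fold. Nts and Gal sit at the centre, Cartpt at the dotted line of 2-fold lower, and Sst at 2.63 in the sparse right tail.

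The remaining 6 members, Npy, Vip, Cck, Tac1, Penk and Adcyap1, were measured on neither array. They include the interneuron peptides neuropeptide Y and vasoactive intestinal peptide, the tachykinin precursor Tac1 (substance P), the enkephalin precursor Penk, the cholecystokinin precursor Cck and the PACAP precursor Adcyap1. The 8 probes of these genes with 1 spot each, all but the Cck probe, had processed signals of 2.75 to 3.34 in the control and 3.21 to 3.77 in the Gli2 shRNA array. Npy, for example, gave 2.75 and 3.21, and Vip 2.81 and 3.27. In all 16 of these spots the software's error was as large as the signal, at 1.003 to 1.008 times it. Before the software's final processing the background-subtracted signals ran from -8.01 to 3.42, and 7 of the 16 were below 0. The processed values did not follow these: with the Gli2 shRNA, an Adcyap1 probe at -8.01 and a Penk probe at 3.07 both read 3.77. Processed values at this floor thus track the software's error and are not readings of the spots. Tac1, Penk and Adcyap1 each had a second probe, and these too were at this floor on both arrays. No difference is given for genes at this floor, and their transcripts were not detectable at this signal over background, which is not the same as absent.

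Cck, a peptide of cortical pyramidal cells and of a class of interneurons, had 1 probe (NM_001284508) on 10 spots per array, which gives a spread between spots. The control spots ran from 3.08 to 11.2 with a median of 6.57, and the Gli2 shRNA spots from 3.62 to 22.7 with a median of 9.28. The spots of the arrays overlap over most of their range. None of the 10 control spots and 1 of the 10 Gli2 shRNA spots, the one at 22.7, were well above background, although 9 of 10 on each array were positive and significant against background by the software's more lenient mark. The lowest and the highest Gli2 shRNA spots were marked as population outliers and left out of the mean, and the 8 others ran from 5.20 to 15.8. The mean log2 signal on that array was 3.18 with and without them. With that mark in place of the stricter one, Cck counted as measured with a scaled difference of 0.22 ± 0.34. The spots are technical repeats of 1 labelled RNA and say nothing about the spread between cultures.

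**Figure D3:**
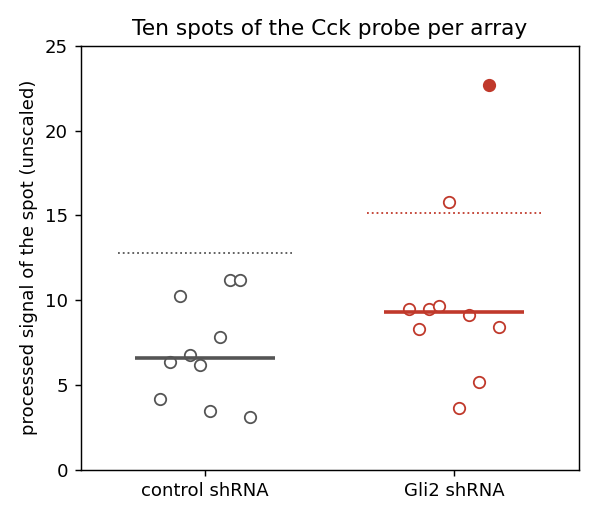
Processed signal of the 10 spots of the Cck probe on the control shRNA array (grey) and the Gli2 shRNA array (red), with solid bars at the medians of 6.57 and 9.28, open circles for spots not well above background, and dotted bars at the lowest signal well above background of any probe on the array. The spots overlap between the arrays, and 1 spot, at 22.7 on the Gli2 shRNA array, is filled; it was marked as an outlier.

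The promoters are shown for the cyclic AMP response element, for which the Sst promoter is known. RefSeq promoter windows on GRCm38.p6 were at hand for 9 of the 10 members. The 250 bases before the start are shown on the gene's strand for Sst and Cartpt, which hold the full element, for Vip, which holds its core, and for Gal, which holds neither. Capitals mark the cyclic AMP response element TGACGTCA in the first 2, and in Vip its shorter core TGACG.
Sst, chr16:23890845-23891094, minus strand: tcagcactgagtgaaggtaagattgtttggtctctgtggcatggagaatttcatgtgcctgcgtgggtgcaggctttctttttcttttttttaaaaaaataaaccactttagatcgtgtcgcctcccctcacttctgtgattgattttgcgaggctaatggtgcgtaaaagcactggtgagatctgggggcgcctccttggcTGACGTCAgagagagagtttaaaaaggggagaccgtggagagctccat
Cartpt, chr13:99900684-99900933, minus strand: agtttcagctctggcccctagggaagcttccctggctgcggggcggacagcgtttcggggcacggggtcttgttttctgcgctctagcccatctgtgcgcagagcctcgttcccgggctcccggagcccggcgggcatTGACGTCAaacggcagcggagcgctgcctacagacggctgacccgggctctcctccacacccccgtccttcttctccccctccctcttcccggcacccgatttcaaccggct
Gal, chr19:3414545-3414794, minus strand: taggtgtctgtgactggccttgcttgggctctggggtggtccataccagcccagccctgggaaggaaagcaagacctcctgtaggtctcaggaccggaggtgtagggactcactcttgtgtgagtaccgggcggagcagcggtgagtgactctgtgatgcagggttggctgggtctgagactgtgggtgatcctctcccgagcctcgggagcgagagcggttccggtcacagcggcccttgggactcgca
Vip, chr10:5638968-5639217, plus strand: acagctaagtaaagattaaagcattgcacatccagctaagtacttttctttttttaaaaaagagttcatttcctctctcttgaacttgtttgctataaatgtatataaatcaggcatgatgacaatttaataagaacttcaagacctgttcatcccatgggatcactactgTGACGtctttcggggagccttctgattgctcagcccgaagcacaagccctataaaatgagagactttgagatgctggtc

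The full element TGACGTCA, which reads the same on both strands, lay 48 to 41 bases before the start of Sst and 112 to 105 bases before that of Cartpt. It was in no window of the other 7 members with one, and in 1.55% of 32851 such windows over the genome, of any gene. The core TGACG, searched on both strands and contained in the full element, was in windows of 7 members (Sst, Vip, Cck, Tac1, Nts, Adcyap1 and Cartpt) and in 17.8% of all windows. The Gli binding sequence GACCACCCA, searched on both strands, was in no member's window and in 0.225% of all windows. The members were chosen with their differences known, so nothing is read from which of them hold the element. A match is a description of letters in a window and not evidence that a factor binds there.

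Receptors of the members' peptides were mostly undetected, and those measured on both arrays ran from -0.77 to 0.58. The list holds no receptor of the CART peptides. Of 27 receptor genes, 9 were measured on both arrays, 15 on neither, and none of the 9 passed 2-fold. Of the somatostatin receptors, Sstr4 gave 91.2 and 99.4, a difference of -0.15 ± 0.21, and Sstr5 gave 0.05 ± 0.20 on its brighter probe and 0.25 ± 0.21 on the other. Sstr3 was measured on the control array only, at 24.8 against 15.8. It was 1.90-fold lower, short of 2-fold, and differed by -0.36 with normexp. Its dim value is above the lowest measured signal of 15.2, so this is its plain difference and not a bound. Sstr1 and Sstr2 were measured on neither array. Galr3, a galanin receptor, differed by 0.03 ± 0.23.

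Ntsr1, a receptor of neurotensin, was the receptor past 2-fold by its bound. Its brightest probe gave 6.81 in the control against 112 with the Gli2 shRNA. Being measured on the latter alone, Ntsr1 was at least 7.25-fold higher. With normexp its difference was 1.11, and its other probe was not measured on both arrays. The bound sets the dim side at the lowest measured signal, and among the 476 genes in the same position, dim in the control alone, 31.1% were likewise 2-fold or more higher by their bound. The median difference of the 9 receptors measured on both arrays was 0.03, beside 0.0029 over all genes, and -0.05 with normexp, so the list has no direction.

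Other neuropeptide precursors did not follow Sst either. Of 49 such genes, 21 were measured on both arrays, with a median of 0.08 that turned to -0.04 with normexp, and 1 of them passed 2-fold. That gene was Vgf, a granin-like precursor, at 1073 and 2707 (1.06 ± 0.20, but 0.23 on its other probe). Cort, which encodes cortistatin, the close relative of somatostatin that binds the same receptors, gave 243 and 292, a difference of -0.0076 ± 0.21. Calcb, a calcitonin gene-related peptide precursor, was measured on the control array only, at 94.4 against 3.32, a value in the range of the floor. It was at least 7.54-fold lower by its bound, and with normexp it differed by -1.41, still past 2-fold. Of 931 genes measured on that array alone, 18.2% were at least 2-fold lower in this way. Nppc, the C-type natriuretic peptide precursor, was measured with the Gli2 shRNA alone, at 4.11 against 36.0, and was at least 2.32-fold higher by its bound, but differed by 0.35 with normexp.

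Most genes that process peptide precursors were measured, none of them past 2-fold, while several granule genes were. Of 16 processing genes, 15 were measured on both arrays, 12 of them above 0, with a median of 0.28 (0.12 with normexp, 0.41 with median scaling). Over all genes, 7331 of 14563 were above 0, 1.84% were 2-fold or more higher and 1.79% lower. These shares stand beside the counts of this and the later lists. Pcsk2, a prohormone convertase of neurons, was dim at 24.4 and 43.0 (0.54 ± 0.30), and Pcsk1, its partner, was measured on neither array. Cpe, the carboxypeptidase that trims cut peptides, was bright at 8470 and 14847 (0.53 ± 0.20). Of 12 granin and granule cargo genes, 8 were measured on both arrays, 7 of them above 0 (median 0.54, and 0.36 with normexp). Of the 8, 3 were 2-fold or more higher. These were Scg2 (65.9 and 422, 2.40 ± 0.21, and 1.64 with normexp), Scg3 (389 and 1278, 2.71-fold) and Vgf, whose other probe was within 2-fold (0.23). Ptprn, a granule membrane protein, was measured with the Gli2 shRNA alone and was 2.16-fold higher, but differed by 0.04 with normexp. Its control value of 13.1 is above the lowest measured signal, so this is its plain difference and not a bound. Of 14 peptide-degrading enzymes, 9 were measured on both arrays and 1, the aminopeptidase Anpep, was past 2-fold (46.0 and 113, 1.01 ± 0.23, but 0.49 with normexp).

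Among 26 genes of the cyclic AMP and CREB relay, which acts on the element in the Sst promoter, 25 were measured on both arrays, 13 above 0 and 12 below (median 0.0079, and -0.08 with normexp). 3 were 2-fold or more higher and 1 lower. The adenylate cyclase Adcy1 gave 68.3 and 328, a difference of 1.99, and 1.37 with normexp. Its other probe was not measured on both arrays. Adcy8 was 2.15-fold higher on its brighter probe but differed by -0.64 on the other, and the phosphodiesterase Pde4a was 2.33-fold higher (0.84 on its other probe). With normexp Adcy8 (0.51) and Pde4a (0.59) were within 2-fold. Atf2, a CREB-family factor, differed by -1.24 on its brightest probe, 2.37-fold lower, and by -0.55 on another.

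**Figure D4:**
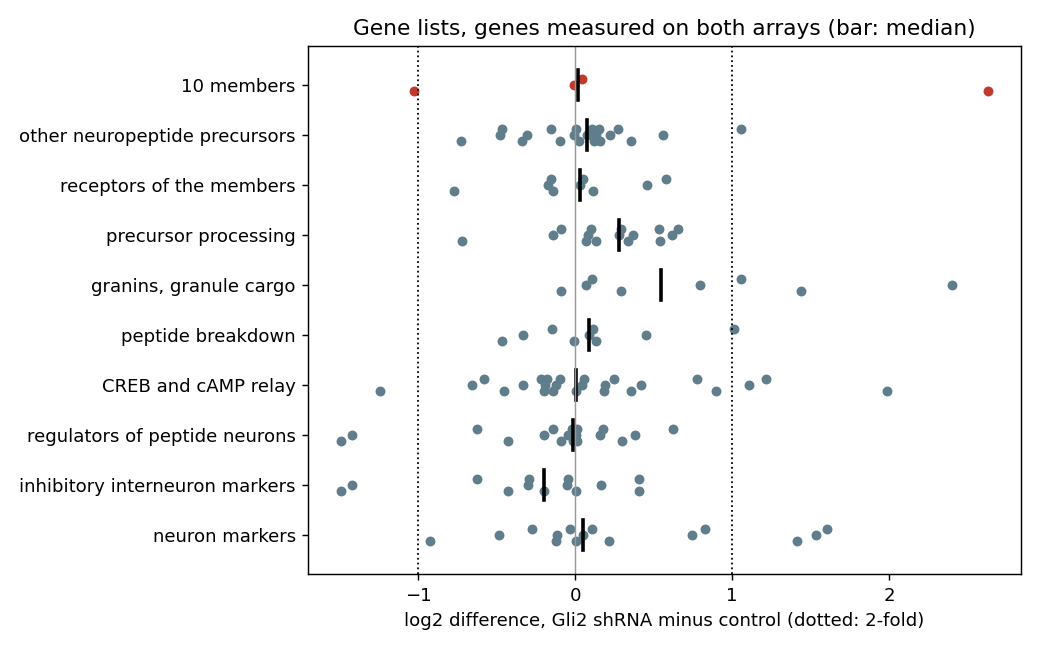
Scaled log2 difference, Gli2 shRNA minus control, of each gene measured on both arrays in the 10 members (red) and in 9 lists of related genes (blue-grey), with a black bar at each list's median and dotted lines at 2-fold. Of the lists shown, granule genes have the highest median, 0.54, and the markers of inhibitory interneurons the lowest, -0.20, while most centre near 0. A list of oligodendrocyte markers, not shown, had a lower median, -0.40.

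Markers of inhibitory interneurons in general, not of somatostatin cells alone, were mostly at or below 0 where measured. Of 19 inhibitory interneuron markers, 13 were measured on both arrays, 9 of them below 0 (median -0.20, and -0.065 with median scaling), and 2 were 2-fold or more lower. These were the transcription factors Sox6 (937 and 424, its only probe measured on both arrays) and Dlx6 (53.9 and 23.2, -0.58 with normexp). Reln was at least 2.76-fold higher by its bound but differed by 0.24 with normexp. Of the genes that define GABA neurons, Gad1 differed by 0.41 ± 0.20 (0.20 on its other probe) and Gad2 was measured on neither array. Slc32a1 was dim at 19.3 and 31.0 and differed by 0.41 ± 0.36, but by -0.04 with normexp, so it has no settled direction. The signals of all 19 genes, dim ones included, were each divided by the array's 75th percentile and summed. The sum was 12.9 in the control against 10.4 with the Gli2 shRNA. Without Sox6, which carried most of that fall, it was 10.0 and 9.35. Bright probes weigh most in such sums, here and in the lists below.

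Among 23 transcription factors of peptide neurons, 18 were measured on both arrays, none higher by 2-fold and 2 lower, again Sox6 and Dlx6 (median -0.02, and 0.12 with median scaling). Of 18 general neuron markers, 15 were measured on both arrays, and 3 were 2-fold or more higher: the neurofilament gene Nefh (19.7 and 72.7, but 0.55 with normexp), the internexin gene Ina (288 and 1013) and the enolase gene Eno2 (199 and 640). Probes of 1 gene disagreed in this list: Dcx, a marker of young neurons, differed by -0.93 on its brightest probe but by 2.75 on the other, and Elavl4 by -0.12 on its brightest probe but by -2.07 on another. The median of that list was 0.05, and -0.06 with normexp, and its summed scaled signal was 85.4 in the control and 71.5 with the Gli2 shRNA. That fall was carried by Map2, and without it the sums were 28.7 and 31.0. Of 11 markers of endocrine and somatostatin-making pancreatic cells, 6 were measured on both arrays. Rbp4 was higher (16.9 and 58.5, 0.25 with normexp) and Ins2 lower (80.8 and 44.3, -0.59 with normexp), and the summed scaled signal was 2.34 and 2.37. The part of any of these cells in the Sst difference was not tested. In RNA from a whole culture, a larger number of cells with Sst and more Sst RNA per cell cannot be told apart.

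The Sst difference stayed past 2-fold under 12 other ways of processing the arrays. It ran from 2.31 with normexp to 2.77 with median scaling. Several of the 12 could not move it, since Sst has 1 bright probe on 1 unflagged spot. Without a filter, with the stricter filter, with the lenient mark and with the mean of a gene's probes it stayed at 2.63. Keeping outlier spots and the authors' value table, which holds the same intensities less a constant, also gave 2.63. Gal ran from 0.02 to 0.18 under the same 12. Under the 11 that kept them, Nts ran from -0.11 to 0.41 and Cartpt from -1.05 to -0.39.

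**Figure D5:**
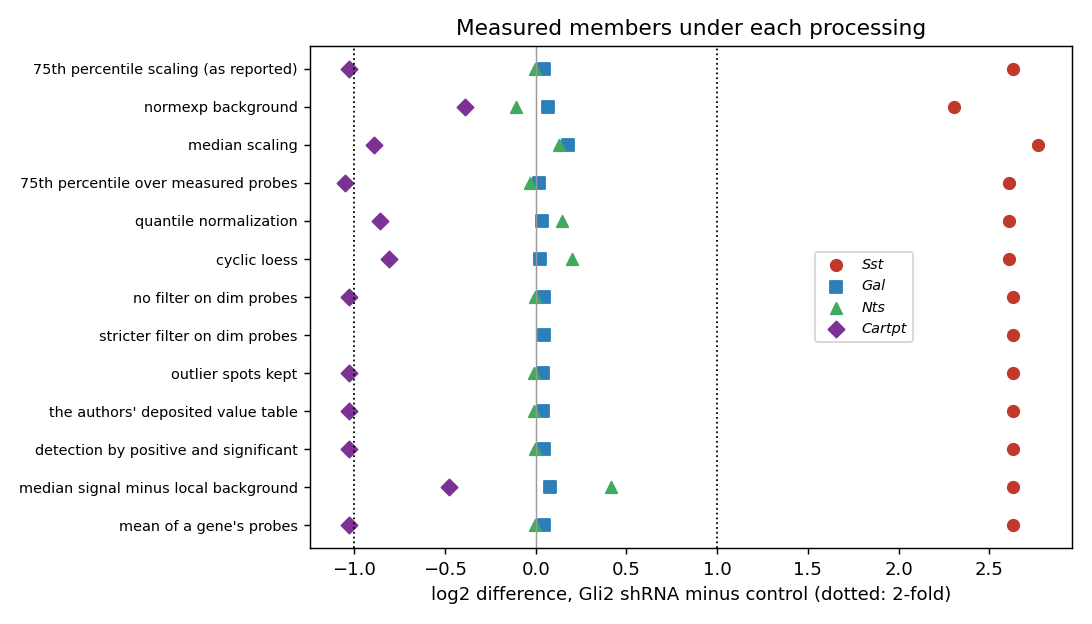
Log2 difference, Gli2 shRNA minus control, of the 4 measured members under the processing reported and 12 alternatives (11 for Nts and Cartpt, which the stricter filter leaves out), with dotted lines at 2-fold. Sst stays between 2.31 and 2.77, Gal and Nts stay within 2-fold on both sides of 0 or near it, and Cartpt moves between -1.05 and -0.39 across the line of 2-fold lower.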

How the data were processed

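Per the labels' protocols, total RNA of 2 samples was labelled with Cy3 for Agilent arrays. The deposited scanner files hold background-subtracted processed intensities, their software errors and flags, read, per the file headers, by Agilent Feature Extraction version 12.1.0.3 (protocol GE1_1200_Jun14, array design 074809, grid build mm9). The authors' deposited value table is on a log2 scale: set against the scanner values, each column equals the log2 of the processed intensity less a constant (8.36 in the control, 8.64 with the Gli2 shRNA), with column medians of -3.55 and -3.69.

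Spots marked as non-uniform or population outliers were left out, spots of a probe averaged on the log2 scale, and 56595 probes scaled to the 75th percentile. A probe with several spots was measured when most were well above background. Probes were named through RefSeq accessions (GRCm38.p6), 34560 of them to 1 gene, and the brightest probe stood for its gene. Ntsr1, Adcy1, Sox6, Nefh, Reln, Ptprn and Nr2e1 had other probes, none of them measured on both arrays. Where 1 array alone measured a probe, its dim value was raised to the lowest measured signal if below it. Alternatives used limma 3.58.1 under R 4.3.3; the files hold no mean spot signal, so normexp (offset 50) used the median. The calculation was tested on simulated data with changes set in bright probes only and the control array's flags on both arrays. Detection, dim probes and the bound rule were thus not tested.

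A single array per group allows no test, and the number of arrays limits the precision. Members and lists were chosen with earlier results of these data known. The genes named are Gli2, all members, Cort, the somatostatin receptors and, in each list described, genes past 2-fold (at most 6), with the 3 genes nearest to Sst in their difference; Galr3, Pcsk1, Pcsk2, Cpe, Gad1, Gad2 and Slc32a1 were added for their roles, and Map2, Dcx and Elavl4 for what they do to their list, after their values were seen. A further interneuron marker is not reported here. Core promoter windows end at the start site, so no transcribed bases are shown.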

Additional observations from a re-analysis of the deposited data

How the results depend on the processing

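The Sst difference of 2.63 stayed 2-fold or more higher under all 12 alternatives, several of which could not move it. With normexp it was 2.31, which moved it by more than the software error. 2 members passed 2-fold as reported, Sst and Cartpt. The count was 1, Sst alone, with normexp, with median scaling, with quantile normalization, with cyclic loess, with the stricter filter (a signal of at least 50 on both arrays, which leaves out Cartpt and Nts), with the median signal minus local background and with a 3-fold rule, and it stayed at 2 under the other alternatives. Detection by the lenient mark and the median signal minus local background were chosen after seeing the data.

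Over all genes, 528 passed 2-fold as reported, 50.8% of them higher. The number was 167 with normexp (40.1% higher), 297 with the stricter filter, 2844 without a filter (27.0% higher), 1678 with the lenient mark (31.5% higher), 1827 with a 1.5-fold rule and 93 with a 3-fold rule. Higher genes made up 68.6% with median scaling, which shifted the median difference over all genes by 0.14, and 69.1% with the median signal minus local background. Members at background have no order, and their differences were not used. No paired analysis was possible because each group has 1 array.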
